A study of Mus musculus with 6 samples.

Results

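RUNX proteins are transcription factors that bind DNA through a conserved Runt domain, and they bind it well only when paired with CBFB, a partner that does not touch DNA itself. Each Runx gene has a distal promoter and a proximal promoter, whose transcripts start in different first exons and encode proteins with different amino ends. In the thymus RUNX1 is needed for early T cell precursors, RUNX3 is best known for the CD8 lineage and for silencing of Cd4, and RUNX2 is best known for bone. The members described here are the 4 genes Runx1, Runx2, Runx3 and Cbfb, chosen by gene symbol out of 41254 symbols in the table, and they have 33 of its 100144 transcripts.

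The libraries came from DN3a thymocytes of adult C57BL/6 mice, 3 of wild-type genotype and 3 of the genotype Tg_Cd2_GATA3. At this stage neither coreceptor is displayed and Tcrb rearrangement is under way. The transgene's name joins Cd2 to GATA3, which the study's title describes as overexpression. The sources used here do not state which Cd2 elements drive it or whether the mice are of 1 founder line. Whether each library is a separate animal is not stated either. The p-values thus cover just the spread among these libraries, part of which may be technical. Levels of Y-linked RNA, given below, differ within each group, so the libraries of a group do not all come from the same material. Gata3 itself, as a check of the labels, was at 49.1, 38.2 and 43.5 normalised CPM (counts scaled to library depth, given here and below in the order of replicates 1, 2 and 3) across the wild-type libraries and at 58.6, 53.6 and 61.6 across the transgenic libraries. All 3 transgenic values lay above the wild-type ones, and the log2 fold change of 0.41 ± 0.10 (SE) missed the threshold (edgeR, adjusted p = 0.17, from 0.007 to 0.514 over 15 alternatives). It passed with DESeq2 (adjusted p = 0.007), with Y-linked RNA as a covariate (edgeR, adjusted p = 0.0416), and when wild-type replicate 1 was left out (edgeR, adjusted p = 0.0255).

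Libraries held 39022281 to 46985605 estimated fragments. Wild-type replicate 1 and transgenic replicate 3 held 18522 and 16840 fragments of Y-linked genes and the other 4 held 16 to 26, and the former are called the libraries with Y-linked RNA (over 1000 fragments). All 10 markers of T cells before beta selection had a mean of at least 1 FPKM (fragments per kilobase of transcript, scaled to library depth), with summed levels of 3274 to 3677 FPKM in wild-type and 3520 to 3926 FPKM in transgenic libraries. Lists for other cell types were mixed. Of 6 B cell markers 5 had means under 0.1 FPKM, with Pax5 listed at 0, and Cd79b was at 33.3 FPKM, for sums of 29.2 to 34.1 FPKM in wild-type and 31.5 to 37.8 FPKM in transgenic libraries. Of 5 NK and ILC markers Ncr1, Eomes and Klrd1 were listed at 0 and Nkg7 was at 53.8 FPKM, for sums of 48.8 to 63.2 and 46.9 to 58.4 FPKM. The other markers above 10 FPKM on such lists were Lyz2 (myeloid, 14.7 FPKM), Epcam and Pecam1 (stroma and epithelium, 41.9 and 32.0 FPKM), Kit (early progenitors, 11.7 FPKM), Cpa3 (mast cells) and Sox13 and Cd1d1 (gamma delta and NKT cells). The 7 markers of later T cells summed to 19.3 to 23.1 FPKM in wild-type and 10.7 to 16.8 FPKM in transgenic libraries. The mast and basophil list, nearly all of it Cpa3, summed to 18.3 to 25.6 FPKM and 31.7 to 39.7 FPKM in the same order, with Mcpt8 and Fcer1a listed at 0. The gamma delta and NKT list summed to 56.9 to 58.8 FPKM and 58.9 to 75.2 FPKM. Those sums cover 3 of its 4 markers, since Trdc had no usable value, and Zbtb16 averaged 0.0292 FPKM. The part of any of these lists in the values below was not tested.

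The starts of the distal transcripts are shown because their sequence is what the 3 Runx genes share and the proximal windows of Runx1 and Runx3 lack. The windows are those of RefSeq on GRCm38.p6, from 250 bases before to 50 bases after an annotated start, 5′ to 3′ on the gene's strand. Capitals mark ACCACA, the core of the RUNX binding motif, searched on both strands (TGTGGT on the other). The RefSeq table held 6 windows for the 4 genes, a distal one for each Runx gene, a proximal one for Runx1 and Runx3, and 1 for Cbfb.
Runx1 distal, chr16:92826025-92826324, minus strand: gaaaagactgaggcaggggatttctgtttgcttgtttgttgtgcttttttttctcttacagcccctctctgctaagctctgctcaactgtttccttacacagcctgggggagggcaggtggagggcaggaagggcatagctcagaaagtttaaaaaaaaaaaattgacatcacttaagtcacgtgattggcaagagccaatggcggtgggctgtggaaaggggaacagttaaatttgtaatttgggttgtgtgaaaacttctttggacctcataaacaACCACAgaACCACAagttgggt
Runx1 proximal, chr16:92697280-92697579, minus strand: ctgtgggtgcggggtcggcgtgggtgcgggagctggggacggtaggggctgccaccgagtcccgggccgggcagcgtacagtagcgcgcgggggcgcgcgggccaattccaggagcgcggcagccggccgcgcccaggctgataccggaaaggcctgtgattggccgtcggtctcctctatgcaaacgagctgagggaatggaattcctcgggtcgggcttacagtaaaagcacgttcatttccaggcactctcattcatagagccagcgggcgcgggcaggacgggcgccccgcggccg
Runx2 distal, chr17:44814578-44814877, minus strand: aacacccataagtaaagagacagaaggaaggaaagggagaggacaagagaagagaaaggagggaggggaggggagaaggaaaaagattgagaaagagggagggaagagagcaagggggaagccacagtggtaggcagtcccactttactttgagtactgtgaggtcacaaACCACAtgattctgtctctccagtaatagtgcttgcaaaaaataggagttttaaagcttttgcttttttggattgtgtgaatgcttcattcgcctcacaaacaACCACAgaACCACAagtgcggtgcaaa
Runx3 distal, chr4:135120395-135120694, plus strand: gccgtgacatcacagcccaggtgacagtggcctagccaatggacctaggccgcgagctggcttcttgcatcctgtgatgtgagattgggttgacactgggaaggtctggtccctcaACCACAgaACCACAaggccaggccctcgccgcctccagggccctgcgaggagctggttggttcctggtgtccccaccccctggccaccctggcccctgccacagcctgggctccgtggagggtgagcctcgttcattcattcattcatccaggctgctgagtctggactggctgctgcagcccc
Runx3 proximal, chr4:135152295-135152594, plus strand: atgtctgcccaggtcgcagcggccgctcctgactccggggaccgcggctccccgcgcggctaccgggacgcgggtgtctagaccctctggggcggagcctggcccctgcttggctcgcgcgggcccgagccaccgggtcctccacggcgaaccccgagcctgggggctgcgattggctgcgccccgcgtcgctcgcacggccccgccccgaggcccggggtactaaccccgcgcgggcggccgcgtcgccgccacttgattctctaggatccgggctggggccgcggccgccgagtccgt

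The distal windows held 2, 3 and 2 core matches for Runx1, Runx2 and Runx3, and each held the same 18-base run with a pair of cores, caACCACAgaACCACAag. Of 32851 windows in the table, 16.8% held at least 1 core and 1.81% at least 2. The 18-base run stood in 4 windows, the 3 distal Runx windows and that of Gm16225 (chr4:135120327-135120626, minus strand), which overlaps the Runx3 distal window by 232 bases on the other strand. Counting the RefSeq start as base 1, the run began at base 27 in Runx1 and base 22 in Runx2, and it began 136 bases before the start in Runx3. The proximal windows of Runx1 and Runx3 and the Cbfb window held no core match. Their GC content was 69.0%, 77.3% and 69.7%, against 45.0%, 45.3% and 63.7% in the distal windows of Runx1, Runx2 and Runx3. A match is a description of letters, and binding was not measured here.

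Runx1 and Cbfb were the abundant members, and Runx2 and Runx3 were low. Runx1 (ENSMUSG00000022952, chromosome 16, 92601466 to 92826149, minus strand, mm10) was at 82.6, 60.2 and 71.5 FPKM across the wild-type libraries and at 85.1, 73.9 and 91.5 FPKM across the transgenic libraries, summed over its transcripts. Cbfb (ENSMUSG00000031885, chromosome 8, 105170674 to 105217989, plus strand) was at 88.1, 86.2 and 90.3 FPKM for wild type and at 91.5, 90.4 and 86.2 FPKM in transgenic cells. Mean levels put Cbfb above 93.4% and Runx1 above 92.3% of tested genes, whose median was 9.29 FPKM. Cbfb was the higher of the 2 in 5 of 6 libraries, and over all 6 the range of Runx1 reached into that of Cbfb.

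Runx3 (ENSMUSG00000070691, chromosome 4, 135120652 to 135177990, plus strand) was at 5.32, 2.73 and 5.82 FPKM across the wild-type libraries and at 2.46, 5.80 and 5.75 FPKM across the transgenic libraries. Runx2 (ENSMUSG00000039153, chromosome 17, 44495987 to 44814797, minus strand) was at 2.53, 1.61 and 1.95 FPKM for wild type and at 3.94, 3.67 and 2.93 FPKM in transgenic cells. Runx3 was lowest in wild-type replicate 2 and transgenic replicate 1, and its values overlapped those of Runx2. The transgenic Runx2 values all lay above the wild-type ones. Part of that gap was Runx2-208, a retained-intron form of 558 bases that rests on few fragments. It averaged 0.0975 FPKM in wild type and 0.935 FPKM in transgenic cells, beside 2.03 and 3.51 FPKM for Runx2 as a whole. Runx3 ranked above 38.4% and Runx2 above 32.2% of tested genes. Runx1 thus held 91.3, 93.3 and 90.2% of the summed Runx FPKM across the wild-type libraries and 93.0, 88.6 and 91.3% across the transgenic libraries. In whole-population RNA, fewer cells with a transcript and less of it per cell cannot be told apart.

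**Figure D1:**
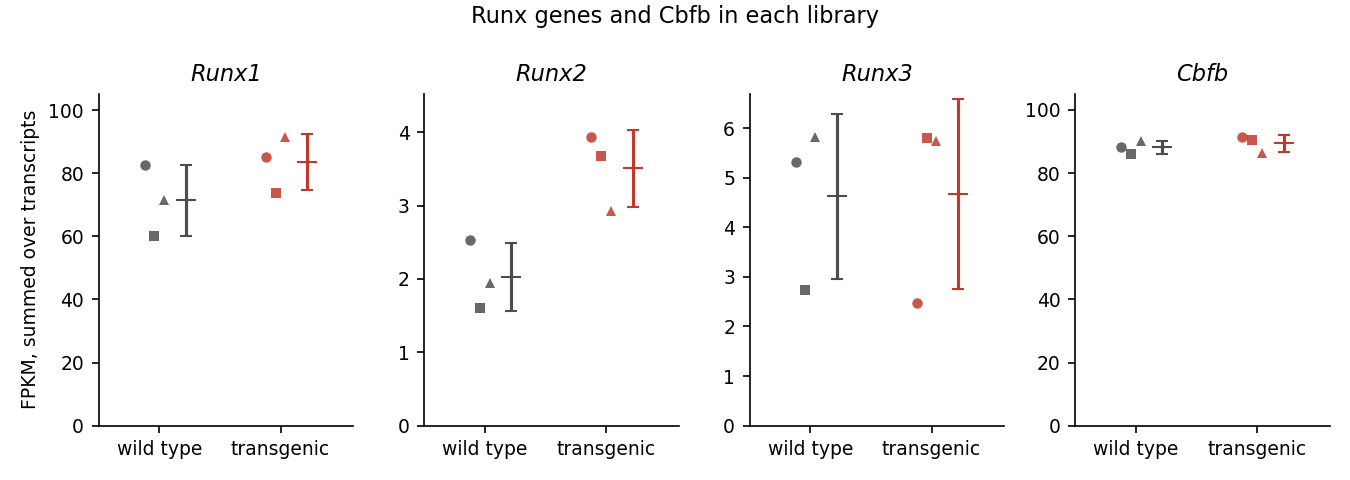
FPKM summed over transcripts (y axis, a separate scale for each gene, all from 0) of Runx1, Runx2, Runx3 and Cbfb in the 3 wild-type (grey) and 3 transgenic (red) libraries (circle replicate 1, square replicate 2, triangle replicate 3), with mean and SD beside them. Cbfb lies at 86.2 to 91.5 FPKM in all libraries, and Runx2 at 1.61 to 2.53 FPKM in wild type and 2.93 to 3.94 FPKM in transgenic cells.

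No member differed between the genotypes past the threshold when fragments were tested over all 14653 genes. edgeR called 0 of the 4, and 0.0136% of all tested genes, at an adjusted p under 0.05. DESeq2 and limma also called 0 of the 4. At an unadjusted p under 0.05 the count was 1 of 4, Runx2, which was higher in transgenic cells, against 13.4% of all genes in either direction and 5.71% higher. In CPM, groups did not overlap for 1 of 4 members, again Runx2, against 18.8% of all genes (8.73% higher and 10.1% lower).

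Runx1 stood at 299, 258 and 269 normalised CPM across the wild-type libraries and at 294, 284 and 329 CPM across the transgenic libraries. The highest library of each group was the one with Y-linked RNA, and the groups overlapped. The means were 275 ± 21.0 and 302 ± 23.9 CPM (SD, n = 3 each), a log2 fold change of 0.13 ± 0.08 (SE) with a 95% interval from -0.04 to 0.30 (edgeR, adjusted p = 0.496). That interval runs from 0.9749-fold to 1.23-fold. Without the libraries with Y-linked RNA this value stayed at 0.13 (edgeR, adjusted p = 0.337), and on the log2(FPKM + 0.1) scale it was 0.23 (limma, adjusted p = 0.56). It was 0.07 when transgenic replicate 3 was left out (edgeR, adjusted p = 0.852).

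Runx2 stood at 9.18, 7.27 and 8.35 CPM across the wild-type libraries and at 9.58, 11.6 and 10.3 CPM across the transgenic libraries. Every transgenic library was above every wild-type one, the smallest gap being between wild-type replicate 1 and transgenic replicate 1. The means were 8.27 ± 0.958 and 10.5 ± 1.05 CPM (SD, n = 3 each), a 1.27-fold difference with a 95% interval from 1.01-fold to 1.6-fold. The log2 fold change of 0.35 ± 0.15 (SE) did not pass over all genes (edgeR, adjusted p = 0.342). On the log2(FPKM + 0.1) scale it was 0.77 (limma, adjusted p = 0.385). Over 15 alternatives it lay above 0 in each, from 0.27 to 0.77, with adjusted p from 0.185 to 0.695.

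Runx3 stood at 14.0, 10.5 and 11.9 CPM across the wild-type libraries and at 10.2, 13.1 and 15.1 CPM across the transgenic libraries. As for Runx1, the library with Y-linked RNA was the highest of its group in both groups, and the groups overlapped across nearly their whole range. The log2 fold change was 0.08 ± 0.17 (SE), with a 95% interval from -0.30 to 0.46 (edgeR, adjusted p = 0.894), so a difference up to 1.37-fold in 1 direction is inside the interval. The part of Y-linked RNA in the levels of Runx1 and Runx3 was not tested beyond fits with it as a covariate or without those libraries. With the covariate the log2 fold changes were 0.13 and 0.08 (edgeR, adjusted p = 0.216 and 0.859). Without those libraries they were 0.13 and 0.06 (edgeR, adjusted p = 0.337 and 0.9275).

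Cbfb stood at 185, 184 and 195 CPM across the wild-type libraries and at 196, 184 and 175 CPM across the transgenic libraries. Its interval was the narrowest of the 4. The log2 fold change was -0.02 ± 0.06 (SE), with a 95% interval from -0.15 to 0.11 (edgeR, adjusted p = 0.912), that is from 0.90-fold to 1.08-fold. The ratio of Cbfb to the summed Runx FPKM was 0.974, 1.34 and 1.14 across the wild-type libraries and 1.0, 1.08 and 0.86 across the transgenic libraries. These ranges overlapped (exact two-sided permutation test, p = 0.3, where 0.1 is the smallest that 3 against 3 libraries allow).

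**Figure D2:**
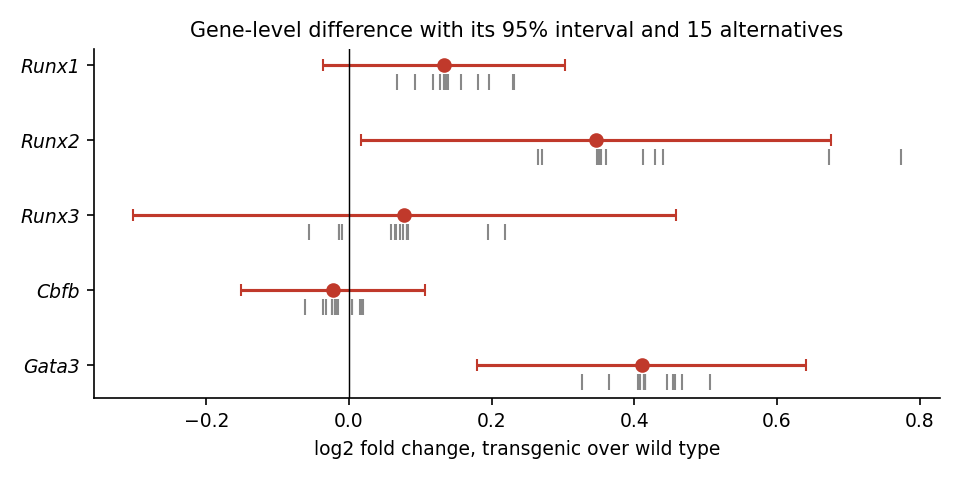
Log2 fold change of transgenic over wild type (x axis) for the 4 members and Gata3, with points for the edgeR fit, bars for its 95% interval, and grey ticks for 15 alternative fits. The intervals of Runx1, Runx3 and Cbfb include 0, and that of Runx2 runs from 0.02 to 0.68.

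Among the shares of the Runx sum, that of Runx2 did not overlap between the groups and those of Runx1 and Runx3 did. The Runx2 share was 2.80, 2.50 and 2.46% of Runx FPKM across the wild-type libraries and 4.31, 4.41 and 2.92% across the transgenic libraries. All transgenic shares lay above the wild-type ones, by 1.29 percentage points in the mean (exact two-sided permutation test, p = 0.1, the smallest possible, and 0.3 adjusted over the 3 genes). Counted in estimated fragments instead, the difference was 0.46 points (exact p = 0.1). The mean shares of Runx1 and Runx3 were 0.60 and 0.69 points apart between the groups, less than their SDs (exact p = 0.8 and 0.6).

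Most Runx1 RNA was assigned to forms that start at the distal promoter. The annotation (GENCODE M21 on GRCm38) places the distal start 128.8 kb upstream of the proximal one in Runx1, 78.1 kb in Runx2 and 31.8 kb in Runx3. A transcript counts as a form of the start that lies within 2000 bases, which placed all 26 Runx transcripts. The distal forms of Runx1 summed to 68.9, 48.8 and 58.4 FPKM across the wild-type libraries and to 73.7, 61.5 and 79.9 FPKM across the transgenic libraries. The proximal forms summed to 13.7, 11.4 and 13.1 FPKM in wild type and to 11.4, 12.4 and 11.6 FPKM in transgenic cells. Distal forms were thus at 81.0 to 83.4% of Runx1 FPKM in wild-type and 83.2 to 87.4% in transgenic libraries. The annotated last exon of the distal Runx1-201 runs on to base 92601466, past the end of the proximal Runx1-202 at 92603656. Fragments from that stretch fall on a distal form alone, whichever promoter made the RNA. The proximal forms have sequence of their own near their start. The values are thus shares of annotated forms, and promoter use itself was not tested. The difference of 3.68 percentage points went with overlapping groups (exact two-sided permutation test, p = 0.2, and 0.6 adjusted over 3 genes), and it was 0.53 points when fragments were counted (exact p = 0.7).

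For Runx2 and Runx3 the division between the promoters was poorly measured. Runx2 distal forms held 32.1, 47.4 and 22.6% of its FPKM across the wild-type libraries and 49.9, 57.5 and 25.3% across the transgenic libraries (exact p = 0.4). Runx3 distal forms held 52.7, 78.0 and 38.9% in wild type and 81.0, 44.1 and 50.4% in transgenic cells (exact p = 0.8). In both genes the spread within a group exceeded the difference of the means, 10.2 and 1.92 points. Leaving out transgenic replicate 2 took the Runx2 difference to 3.54 points, wild-type replicate 3 to 4.46, wild-type replicate 2 to 16.9 and transgenic replicate 3 to 19.6, and the Runx3 difference ran from -9.33 to 12.7 points when 1 library was left out.

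Counted in fragments, the Runx3 picture was steadier and more distal. Its single distal transcript took 96.4, 93.9 and 83.5% of Runx3 fragments across the wild-type libraries and 90.9, 90.8 and 85.9% across the transgenic libraries. The proximal FPKM came largely from transcripts of 353 to 447 bases, where few fragments give a high per-length value. Runx3-203, for example, rests on 15 fragments in the first and 16 in the third wild-type library, listed as 1.98 and 2.10 FPKM. Shares of fragments in turn favour long transcripts, and the distal Runx3-201 has 3884 bases against 1855 in the proximal Runx3-202. It is also annotated to base 135177990, past the end of Runx3-202 at 135176181. Fragments from that stretch fall on the distal form alone, whichever promoter made the RNA. Which unit lies nearer to promoter use was not tested. Runx2 distal forms took 14.3, 48.3 and 5.53% of its fragments in wild type and 30.2, 53.6 and 7.61% in transgenic cells, a wider spread (SD of 22.6 and 23.0 points) than in FPKM (12.5 and 16.8).

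**Figure D3:**
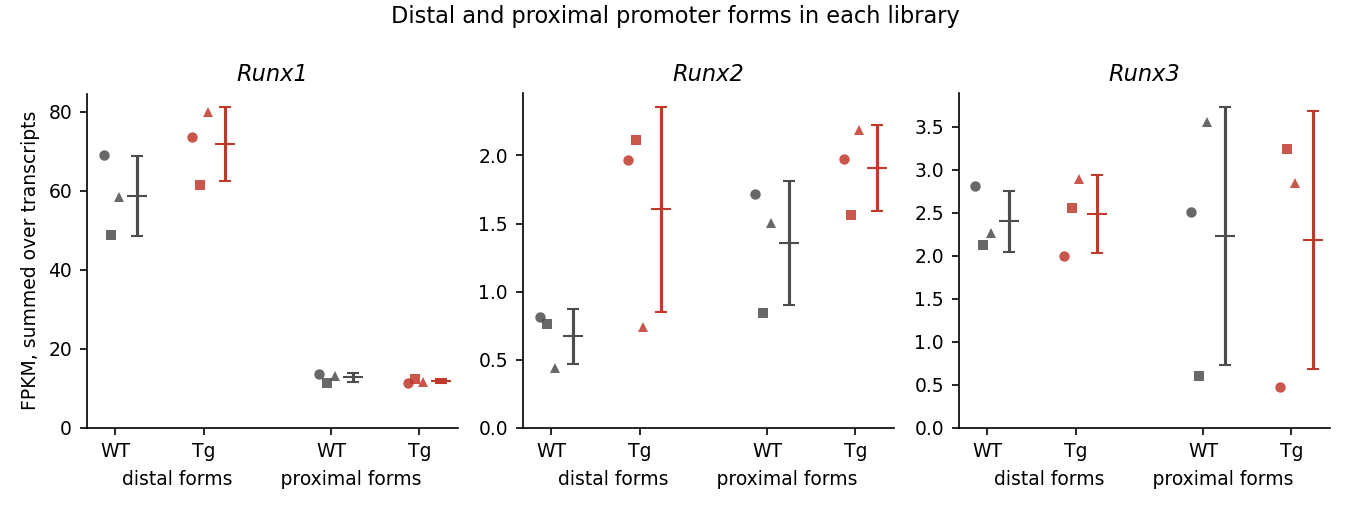
FPKM summed over distal or proximal promoter forms (y axis, a separate scale for each gene, all from 0) of Runx1, Runx2 and Runx3 in wild-type (WT, grey) and transgenic (Tg, red) libraries (circle replicate 1, square replicate 2, triangle replicate 3), with mean and SD of 3. Runx1 distal forms lie at 48.8 to 79.9 FPKM and its proximal forms at 11.4 to 13.7 FPKM.

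**Figure D4:**
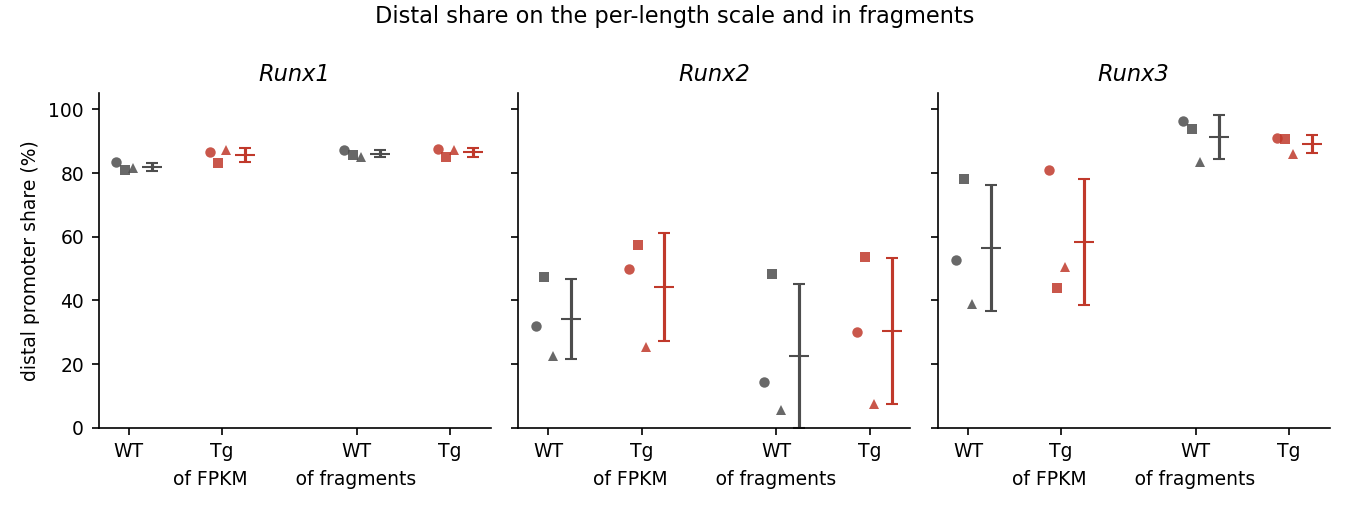
Percent of each Runx gene assigned to distal forms (y axis), as a share of FPKM and as a share of fragments, in wild-type (WT, grey) and transgenic (Tg, red) libraries (circle replicate 1, square replicate 2, triangle replicate 3), with mean and SD of 3. The Runx3 share lies at 38.9 to 81.0% of FPKM and at 83.5 to 96.4% of fragments.

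Of the 33 member transcripts, 19 passed the filter on low counts and 5 had 0 fragments in every library. edgeR called 0 of the 19, as it did 0% of all 38358 transcripts tested, and DESeq2 and limma called 0 of the members too. At an unadjusted p under 0.05 it was 1 of 19, against 5.6% of all transcripts, and 0 of 19 were higher at that p, against 2.37%. In the authors' deposited table none of the 33 was marked significant, the q-values being 0.998 or 1.

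The leading Runx1 form was Runx1-201, a distal transcript of 5861 bases that encodes 465 residues. It was at 45.9, 40.8 and 41.5 FPKM across the wild-type libraries and at 45.0, 44.0 and 50.9 FPKM across the transgenic libraries, with overlapping groups. Its log2 fold change was 0.11 ± 0.09 (SE; edgeR, adjusted p = 0.9999). Runx1-207, a distal transcript without an annotated protein, was at 5.63, 6.68 and 5.66 FPKM for wild type and at 6.91, 7.30 and 10.4 FPKM in transgenic cells. Its transgenic values all lay higher, and the log2 fold change of 0.43 ± 0.19 (SE) did not pass (edgeR, adjusted p = 0.909) and was 0.22 without transgenic replicate 3 and 0.19 without the libraries with Y-linked RNA. Runx1-204, a distal fragment of 336 bases with an incomplete annotation, had the widest FPKM range of the 7 Runx1 transcripts. It ran from 1.27 FPKM in wild-type replicate 2 to 21.8 FPKM in transgenic replicate 1, on 11 and 173 fragments. Its means of 9.96 FPKM in wild type and 16.8 FPKM in transgenic cells enter the summed Runx1 FPKM. They thus weigh on the limma value of Runx1, its distal share and the ratio of Cbfb to Runx FPKM.

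The proximal Runx1 forms that encode whole proteins differ by an exon of 192 bases (chromosome 16, 92644154 to 92644345), present in Runx1-203 and in the distal Runx1-201 and absent from Runx1-202. Skipping it removes 64 residues, from 451 in Runx1-203 to 387 in Runx1-202. Runx1-202 was the higher of the pair, at 5.91, 6.20 and 6.36 FPKM across the wild-type libraries and at 5.91, 7.93 and 7.58 FPKM across the transgenic libraries. Runx1-203 was at 3.4, 2.28 and 4.38 FPKM for wild type and at 2.19, 2.15 and 0.781 FPKM in transgenic cells. All 3 transgenic values of Runx1-203 lay below the wild-type ones, the nearest being wild-type replicate 2 and transgenic replicate 1. Its log2 fold change was -0.91 ± 0.47 (SE; edgeR, adjusted p = 0.964), and without transgenic replicate 3 it was -0.56 (edgeR, adjusted p = 0.9999). In FPKM, 2 of the 19 tested members had groups that did not overlap, Runx1-207 higher and Runx1-203 lower, against 12.8% of all transcripts (7.25% higher and 5.59% lower).

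The main transcripts of Cbfb differ at a splice site. Cbfb-202 uses a donor site 31 bases further downstream in 1 exon (chromosome 8, added bases 105202548 to 105202578) and encodes 182 residues, against 187 in Cbfb-201. Cbfb-202 was the leading form, at 62.0, 61.0 and 59.4 FPKM across the wild-type libraries and at 70.6, 67.7 and 57.4 FPKM across the transgenic libraries. Cbfb-201 was at 22.4, 23.6 and 27.4 FPKM for wild type and at 18.2, 18.8 and 22.7 FPKM in transgenic cells. Transgenic replicate 3 was the highest of its group for Cbfb-201 and the lowest for Cbfb-202, and both forms overlapped between the groups.

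Cbfb-201 was the member transcript with an unadjusted p under 0.05. Its log2 fold change was -0.33 ± 0.13 (SE; edgeR, adjusted p = 0.847), and that of Cbfb-202 was 0.08 ± 0.09 (SE; edgeR, adjusted p = 0.9999). Without the libraries with Y-linked RNA the Cbfb-201 value was -0.51 (edgeR, adjusted p = 0.57). Cbfb-201 made up 26.5, 27.9 and 31.6% of the pair's FPKM across the wild-type libraries and 20.5, 21.7 and 28.3% across the transgenic libraries, shares that were set out after the transcript values were seen and carry no test. In the authors' deposited table the log2 fold changes of Cbfb-201 and Cbfb-202 were -0.30 and 0.10 (q = 0.998 for both). Fragments are divided among overlapping forms by a model, and that uncertainty is not in these errors.

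Runx3-201, the distal form of 423 residues, was at 2.81, 2.13 and 2.27 FPKM across the wild-type libraries and at 1.996, 2.56 and 2.89 FPKM across the transgenic libraries. Its groups overlapped, with a log2 fold change of 0.03 ± 0.22 (SE; edgeR, adjusted p = 0.9999). The proximal Runx3-202, of 409 residues, was listed at 0 in wild-type replicate 1 and reached 0.798 FPKM in wild-type replicate 3. For Runx2 the leading form was the proximal Runx2-203, of 514 residues, at 1.06, 0.511 and 1.34 FPKM for wild type and at 0.663, 0.734 and 1.59 FPKM in transgenic cells. The distal Runx2-202, of 528 residues, ran from 0 in the third replicate of each group to 0.564 and 1.10 FPKM in the second. Neither Runx2 form separated the groups. The retained-intron form Runx2-208, at the distal start, had 0, 0 and 5 fragments in wild type and 20.7, 14.4 and 7 in transgenic cells and did not pass the filter on low counts.

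The remaining forms were scarce. Runx1-206, a retained intron, was at 2.12 to 3.21 FPKM in transgenic libraries and Runx1-205 at 0 to 2.36 FPKM over all 6. Cbfb-203, which encodes 148 residues, was at 1.05, 0.888 and 0.143 FPKM across the wild-type libraries and at 0.158, 0 and 0.136 FPKM across the transgenic ones, with overlapping groups (log2 fold change -2.81 ± 1.41 SE; edgeR, adjusted p = 0.949). Cbfb-206, without a protein, was at 0.537 to 1.57 FPKM in wild-type and 1.37 to 3.98 FPKM in transgenic libraries (1.20 ± 0.72; edgeR, adjusted p = 0.993). Cbfb-204, Cbfb-205 and Cbfb-207 lay between 0 and 1.68 FPKM. The 6 other named Runx2 forms, Runx2-204, Runx2-205, Runx2-206, Runx2-209, Runx2-210 and Runx2-212, lay between 0 and 0.884 FPKM, each at 0 in at least 1 library. Runx3-205 and Runx3-206 lay between 0 and 1.66 FPKM. Runx2-201, Runx2-207, Runx2-211, Runx2-213 and Runx3-204 had 0 fragments in every library.

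Annotated genes on the members' loci were few and mostly near 0, which bears on counting because no strand setting is stated. Runx2os1 lies on the opposite strand over the Runx2 proximal start and had 19 to 41 fragments per wild-type and 11 to 29 per transgenic library. Runx2os2 had 0 to 3 fragments in wild-type and 4 to 14 in transgenic libraries, below the filter, and Runx2os3 and n-R5s27 were listed at 0. Supt3, a protein-coding gene on the opposite strand across the Runx2 distal start, was at 7.30 FPKM in wild-type and 5.99 FPKM in transgenic cells on average (edgeR, adjusted p = 0.526). In Runx1 the antisense gene Gm26626 had 1 to 34 fragments. In Runx3 the antisense gene Gm16224 had 6 fragments in transgenic replicate 3 (0.676 FPKM) and 0 in every other library. In Cbfb, Gm22063 was listed at 0, and Gm24629, of 89 bases, had a single fragment in transgenic replicate 1 that the table lists as 1750 FPKM.

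Cofactors and targets of RUNX proteins were then read from 5 lists drawn up from general knowledge of RUNX biology. The lists were chosen with earlier results of these data known, so counts on them are a description. edgeR called 0 genes on any of them at an adjusted p under 0.05. Without wild-type replicate 1 it called 1, 3, 2, 1 and 5 genes on the lists in the order below, beside 498 of about 15020 genes tested. DESeq2, whose calls on each list are given below, called 497 of about 20820 genes given to it. That number was taken before its own filter on low counts. The median over all tested genes was 0.001 on the log2 scale, and 50.2% of them had a positive value. Corepressors and coactivators, such as the TLE proteins that RUNX recruits to silence genes and the acetyltransferases that help it activate them, had 21 of 24 genes tested, 14 above 0, and a median of 0.11, which became 0.02 when wild-type replicate 2 was left out and 0.04 when transgenic replicate 3 was. With an unadjusted p under 0.05 stood 6 higher and 1 lower, and DESeq2 and limma called 0. Suv39h1, a histone methyltransferase, was at 130, 139 and 144 CPM across the wild-type libraries and 117, 126 and 114 CPM across the transgenic libraries, lower without overlap (log2 fold change -0.21 ± 0.06 SE; edgeR, adjusted p = 0.194). Crebbp, an acetyltransferase, was at 142, 118 and 120 CPM in wild type and 146, 148 and 151 CPM across the transgenic ones, higher without overlap (0.23 ± 0.07; edgeR, adjusted p = 0.22). Wwtr1 was listed at 0 in every library, which allows up to 0.0638 to 0.0769 CPM per library, and Cbfa2t3 lies in a locus whose estimate failed in the table and was left out.

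Enzymes that modify RUNX proteins had 21 of 22 symbols tested, 8 above 0, and a median of -0.07, which was -0.02 without wild-type replicate 2. The symbol not tested, Prmt4, is an older name of Carm1, which is on the list. The unadjusted p was under 0.05 for 2 higher and 5 lower genes, and DESeq2 called 3, Cdc20, Cdk1 and Smurf1. Cdk1, the mitotic kinase that also phosphorylates RUNX1, was at 101, 136 and 143 CPM across the wild-type libraries and 84.2, 93.1 and 74.2 CPM across the transgenic libraries. Its log2 fold change was -0.60 ± 0.13 (SE; edgeR, adjusted p = 0.159). Cdc20, which activates the anaphase-promoting complex that degrades RUNX1, was at 103, 135 and 130 CPM in wild type and 92.1, 93.1 and 75.2 CPM across the transgenic ones (-0.50 ± 0.11; edgeR, adjusted p = 0.159). Both are genes of cell division, and in both wild-type replicate 1 lay nearest the transgenic libraries.

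Genes that RUNX proteins hold up in T cells had 17 of 22 tested, 9 above 0, and a median of 0.05, which became 0.002 when wild-type replicate 2 was left out and 0.01 when wild-type replicate 3 was. There were 3 higher and 2 lower at an unadjusted p under 0.05, and DESeq2 called 1, Bcl11b. Cd8b1, the coreceptor beta chain, was at 7.21, 10.7 and 8.95 CPM across the wild-type libraries and 5.73, 3.07 and 3.30 CPM across the transgenic libraries (-1.15 ± 0.26; edgeR, adjusted p = 0.159). Bcl11b, the T commitment factor, was at 885, 728 and 806 CPM in wild type and 906, 940 and 1062 CPM across the transgenic ones (0.26 ± 0.08; edgeR, adjusted p = 0.22). Eomes and Gzmb, genes of cytotoxic cells, were listed at 0 in every library.

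Genes that RUNX proteins hold down had 12 of 16 tested, 9 above 0, and a median of 0.17, which was 0.38 without transgenic replicate 1 and 0.08 without transgenic replicate 3. Of the genes tested, 3 were higher and 3 lower at an unadjusted p under 0.05, and DESeq2 called 1, Gata3. Gata3 is the gene that the transgene is named for, and it is also among the 9 above 0 and the 3 higher. Its place in these counts is therefore not a finding about RUNX targets. Cd4, silenced by RUNX proteins in precursors, was at 6.9, 6.76 and 7.0 CPM across the wild-type libraries and 4.86, 3.30 and 2.97 CPM across the transgenic libraries (-0.89 ± 0.22; edgeR, adjusted p = 0.162). Per length, Cd4 was at 2.60, 1.70 and 3.12 FPKM across the wild-type libraries and at 2.76, 0.951 and 0.872 FPKM across the transgenic ones, which overlap. Cd4 and Cd8b1 are also on the list of markers of later T cells. The summed level of that list, which includes both genes, was lower in every transgenic library than in any wild-type one. The part of such cells in these values was not tested.

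Factors that act beside RUNX in early T cells, GATA3 among them, had 25 of 28 genes tested, 18 above 0, and a median of 0.06, which became 0.02 when wild-type replicate 3 was left out, 0.03 when transgenic replicate 1 was, and 0.09 with limma. Counts at an unadjusted p under 0.05 were 7 higher and 1 lower. DESeq2 called 6, Bcl11b, Gata3, Ldb1, Myb, Notch1 and Patz1, beside 497 of about 20820 genes given to it. Of those 6, Bcl11b and Gata3 were also counted on the lists of genes held up and held down. Gata3, the gene the transgene is named for, is also among the 18 above 0 and the 7 higher. Patz1, a zinc finger factor, was at 345, 322 and 314 CPM across the wild-type libraries and 384, 379 and 411 CPM across the transgenic libraries (0.26 ± 0.06; edgeR, adjusted p = 0.159). Genes at an unadjusted p under 0.05 numbered 7 of 21, 7 of 21, 5 of 17, 6 of 12 and 8 of 25 on the 5 lists in the order given, beside 13.4% of all genes. Lists chosen with earlier results known cannot test for an excess over that share. The last list shares Bcl11b, Eomes and Satb1 with the genes held up and Gata3, Lmo2, Spi1 and Zbtb7b with the genes held down.

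**Figure D5:**
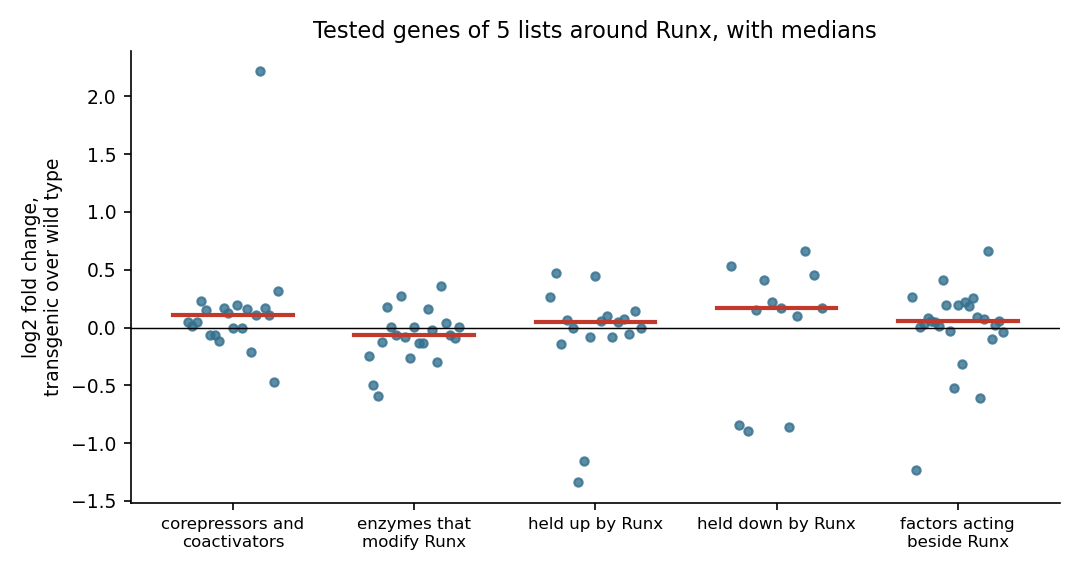
Log2 fold change of transgenic over wild type (y axis) of the tested genes of 5 lists around RUNX, 1 point per gene, with the list's median as a red bar. The medians lie between -0.07 and 0.17.

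The genes with the profile most like a member's were found by the root mean square difference of log2(CPM + 0.5), centred on each gene's mean, over the 6 libraries. For Runx1 they were Abca2, a lipid transporter, at 0.0136, Rnf111, a ubiquitin ligase, at 0.0147 and Osbpl7 at 0.0178, beside a root mean square of 0.112 for Runx1 itself. For Runx2 they were Maml2, a Notch coactivator, at 0.0363, Homez at 0.0579 and Caskin2 at 0.0581, beside 0.205. For Runx3 they were Nrtn at 0.0471, Pou6f1 at 0.0544 and Ccdc125 at 0.0613, beside 0.199. For Cbfb they were Sgta at 0.015, Nop14 at 0.0229 and Actr3 at 0.0245, beside 0.0545. These likenesses come from 6 libraries and a search over all genes with a mean of at least 1 FPKM, and they are given as a description.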

How the data were processed

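Total RNA was depleted of ribosomal RNA before library preparation, per the labels' protocols. The submitters' processing notes name TopHat2, Cuffdiff and the mm10 build; the sources used here give no versions, annotation, read length or strand. Per the file headers, the authors deposited estimated counts of raw fragments and FPKM per transcript and library, scaled fragments (a signal not used here), and their own log2 fold changes, p-values and q-values. The 197 gene symbols with a failed estimate were left out, and 0 per-sample columns belonged to no labelled sample.

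Estimated counts were summed per symbol, rounded and tested with edgeR 4.0.16 (R 4.3.3; quasi-likelihood, TMM, filterByExpr with minimum count 10 and total 15, no covariate, Benjamini-Hochberg, threshold 0.05), per gene (14653) and per transcript (38358). Standard errors derive from the F statistic, and 95% intervals from its degrees of freedom. Errors of means are SD. Shares were compared by exact two-sided permutation tests. Alternatives used DESeq2 1.42.0, limma 3.58.1 on log2(FPKM + 0.1) and log2(FPKM + 0.5), other scaling and filters, a replicate block, Y-linked RNA as a covariate or left out, and each library left out. The tests were tested on simulated data. A floor of 3 fragments covers counting error only.

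The text names the 4 members, their transcripts of at least 0.1 FPKM in either group, Gata3, from each list up to 4 called genes or the 2 with the smallest p, genes listed at 0, overlapping genes and the 3 nearest profiles per member. The list of enzymes held Prmt4, an older symbol of Carm1 on the same list, so its 22 symbols name 21 genes. The members and lists were chosen with earlier results of these data known. Sequences are from RefSeq on GRCm38.p6, where all 4 members matched; gene positions come from the GENCODE M21 annotation (GRCm38, which mm10 names), joined on transcript identifiers.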

Additional observations from a re-analysis of the deposited data

How the results depend on the processing

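All member calls, per gene and per transcript, stayed at 0 under the 15 alternatives. Runx1 and Runx2 kept their direction in each, from 0.07 to 0.23 and from 0.27 to 0.77 on the log2 scale. Runx3 turned to -0.0135 with limma on log2(FPKM + 0.1) and -0.00959 with log2(FPKM + 0.5), and ran from -0.0558 to 0.219 when 1 library was left out. Cbfb turned to 0.0190 and 0.0189 in those fits and to 0.00376 without the libraries with Y-linked RNA, and ran from -0.0622 to 0.0153 when 1 library was left out. So did Runx3-201, from -0.0705 to 0.18, and Cbfb-202, from -0.00251 to 0.16, while Runx1-205 turned from -1.71 to 0.0487 without the libraries with Y-linked RNA. The cause was not tested. The Runx3 distal share difference turned from 1.92 to -2.01 percentage points in fragments and to -3.42 with protein-coding transcripts, and ran from -9.33 to 12.7 points when 1 library was left out. The differences in share of Runx FPKM then ran from -1.61 to 0.58 points for Runx1 and from -1.61 to 0.53 for Runx3.

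Calls over all genes numbered 2 in the edgeR fit, 127 with no filter on low counts, 1 with a mean of at least 1 FPKM, 4 with limma on log2(FPKM + 0.1), 14 with the replicate block, 256 with the covariate for Y-linked RNA, 260 without the libraries with Y-linked RNA, 497 with DESeq2, and 1 to 498 when 1 library was left out (498 without wild-type replicate 1). Over all transcripts they numbered 0, against 2 and 3 in the limma fits with 0.1 and 0.5, 2 without the libraries with Y-linked RNA, 396 with DESeq2, and 0 to 1 when 1 library was left out. List calls were 0 in the edgeR fit. Among enzymes they were 2 with no filter, 2 with the covariate, 2 without the libraries with Y-linked RNA, 3 with DESeq2 and 0 to 3 when 1 library was left out. Among genes held up they were 1, 2, 1 and 1 in those settings and 0 to 2. Among genes held down they were 1 with the covariate, 1 with DESeq2 and 0 to 1, among corepressors and coactivators 1 without the libraries with Y-linked RNA and 0 to 1, and among factors beside RUNX 4 with the covariate, 1 without the libraries with Y-linked RNA, 6 with DESeq2 and 0 to 5. The highest of each range came without wild-type replicate 1, where 3, 2, 1, 1 and 5 were called. Each call on the list of genes held down was Gata3. Deviations of same-numbered libraries correlated over genes at 0.18, 0.138 and 0.002, and wild-type replicate 3 correlated best with transgenic replicate 2 at 0.158, so the numbers were not taken as pairs; with the replicate block the member log2 fold changes were 0.13, 0.35, 0.07 and -0.02 for Runx1, Runx2, Runx3 and Cbfb, with no call. Depth limits the rare forms of Runx2 and Runx3, which rest on few fragments.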
